A study of Mus musculus with 9 samples.

Results

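The aminoacyl-tRNA synthetases are the enzymes that join each amino acid to its transfer RNA. Their genes were read from the counts of donor T cells in mouse hematopoietic stem cell transplantation, in which irradiated recipients are given marrow and T cells of a donor. The members were the protein-coding genes whose symbol is a single capital letter followed by ars, with or without a final 2, together with Eprs, Farsa, Farsb and Tarsl2, whatever their counts. This rule found 38 of the 29229 genes in the count table. By textbook assignment 19 encode cytosolic enzymes, 17 mitochondrial enzymes, and 2, Gars and Kars, both forms.

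A synthetase activates its amino acid with ATP and transfers it to the matching transfer RNA, which then enters the ribosome. Mammalian cells keep separate sets for the cytosol and for the mitochondrion, where a small set of respiratory chain proteins is made, and both sets are encoded in the nucleus. Several cytosolic synthetases are held together in the multisynthetase complex, and many cytosolic synthetase genes are known targets of ATF4, the transcription factor of the amino acid and stress responses. T cells enlarge and make more protein when they are activated.

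Total RNA of live CD3+ CD45.2+ spleen cells, sorted after T-cell enrichment, was sequenced after ribosomal RNA depletion in 9 libraries, 3 per group. Donor T cells of C57BL/6 (CD45.2) mice were taken on day 7 from allogeneic CByJ.SJL(B6)-Ptprca/J recipients (H-2d, CD45.1), which had received 8 Gy and 1000000 T cells. They were taken on the same day from syngeneic B6.SJL-Ptprca Pepcb/BoyJ recipients (H-2b, CD45.1), which had received 9.5 Gy and 8500000 T cells. The naive libraries came from healthy C57BL/6 (CD45.2) mice without transplant. Both kinds of recipient also received 5000000 T-cell-depleted marrow cells of the same donors, whose progeny carry CD45.2 as well. All mice were female, donors and recipients were 8 to 12 weeks old, and cells of 2 to 4 recipients were pooled for a transplant library. Irradiation, cell number and recipient strain therefore differed together between the transplant groups. In all 9 labels the strain entry names the syngeneic recipient strain, so it was not used for grouping.

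Total counts were between 103953932 and 176678189 per library. The sorted T cells showed T-cell markers in all groups: the summed level of 9 such markers was 3840 to 4090 CPM (counts scaled to a library total of 1000000) in allogeneic, 2800 to 3420 in syngeneic and 4180 to 4530 in naive libraries, with none at 0. By the same test as the members, 5 of the 9 were higher in allogeneic than in syngeneic libraries and 7 were lower in syngeneic than in naive libraries. Transcripts of other cells were present as well. Over 13 erythroid markers the sum was 26.3 to 89.1 CPM in allogeneic, 2290 to 5970 in syngeneic and 8.00 to 9.38 in naive libraries. All 13 were lower in allogeneic than in syngeneic libraries, and against naive libraries 12 were higher in allogeneic and 13 in syngeneic libraries. The 8 neutrophil markers summed to 602 to 1090 CPM in allogeneic, 405 to 1360 in syngeneic and 1.55 to 5.06 in naive libraries, and all 8 were higher in both transplant groups than in naive libraries. For 11 macrophage and monocyte markers the sums were 88.9 to 177 CPM in allogeneic, 65.0 to 231 in syngeneic and 6.78 to 7.63 in naive libraries, where Fcgr1 was at 0 in all 3 libraries, and 10 of them were higher in allogeneic and 11 in syngeneic than in naive libraries. Of these 11, 2 were higher and 7 lower in allogeneic than in syngeneic libraries. The 8 B-cell markers summed to 35.8 to 46.4 CPM in allogeneic, 81.4 to 109 in syngeneic and 16.5 to 20.9 in naive libraries, and 6 were lower in allogeneic than in syngeneic libraries. Against naive libraries 5 of the 8 were higher in each transplant group, and 1, Blk, was lower in allogeneic libraries. Proliferation genes (Mki67, Top2a, Ccnb1, Cdk1 and Birc5) summed to 2030 to 2270 CPM in allogeneic, 1680 to 2800 in syngeneic and 73.6 to 100.0 in naive libraries, and all 5 were higher in both transplant groups than in naive libraries. A ribosomal RNA locus (Gm26917 and Gm42418) held 7.87 to 17.24% of counts in allogeneic, 19.37 to 22.43% in syngeneic and 15.79 to 18.83% in naive libraries. The part of these other transcripts in the synthetase differences below was not tested. In such sorted pools fewer cells of a type and less RNA per cell cannot be told apart.

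Most cytosolic synthetase genes were higher in both kinds of transplanted T cells than in naive T cells, while the mitochondrial genes moved in both directions or passed no test. The 19 cytosolic genes summed to 2180 ± 47.3 CPM in allogeneic, 1980 ± 97.1 in syngeneic and 1470 ± 25.2 in naive libraries (SD, n = 3 each). The 3 groups did not overlap in this sum. Vars alone gave a mean of 470 CPM of it in allogeneic and 364 in syngeneic libraries. Between the transplant groups the cytosolic genes went both ways. By the test described below 5 were called higher and 4 lower in allogeneic than in syngeneic libraries, against 24.3% and 20.7% of all tested genes. Their median log2 fold change there was 0.02. Gars and Kars together gave 400.0 ± 14.1 CPM in allogeneic, 305 ± 15.3 in syngeneic and 205 ± 4.04 in naive libraries (SD, n = 3 each), again without overlap. The 16 mitochondrial genes other than Lars2 summed to 407 ± 24.7 CPM in allogeneic, 416 ± 12.2 in syngeneic and 419 ± 1.00 in naive libraries (SD, n = 3 each), and here the groups lay within each other's spread. Lars2 was set apart after its values were seen, since it varied several-fold between libraries of a group.

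**Figure D1:**
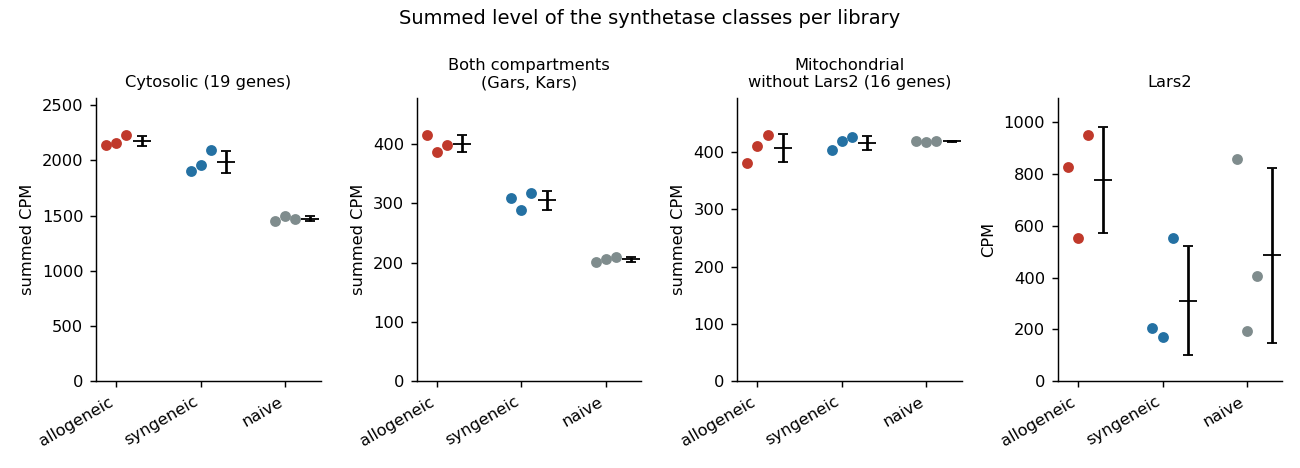
Summed CPM of the cytosolic genes, of Gars and Kars, of the 16 mitochondrial genes without Lars2, and CPM of Lars2 alone, per library (points) with the group mean and SD (bars, n = 3). The cytosolic sums lie at 2140 to 2230 in allogeneic, 1900 to 2090 in syngeneic and 1450 to 1500 in naive libraries, while the mitochondrial sums without Lars2 lie between 381 and 430 in all groups.

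All 38 members passed the filter on low counts and were tested in a fit of all 19609 genes kept, by edgeR's quasi-likelihood test with Benjamini-Hochberg adjustment, and a gene was called at an adjusted p under 0.05. Changes are log2 fold changes from this fit ± SE, computed with TMM-scaled library sizes, whereas CPM values use a library's total count. In allogeneic against naive libraries 18 members rose and 5 fell, against 31.8% of all tested genes called higher and 25.9% called lower. In syngeneic against naive libraries 19 rose and 3 fell, against a background of 22.4% higher and 19.5% lower. These 2 comparisons share the naive libraries. The called members were split by compartment: 13 of 19 cytosolic genes rose and 0 fell in allogeneic against naive libraries, and 15 rose and 0 fell in syngeneic against naive libraries. Of the 17 mitochondrial genes, 3 rose and 5 fell in allogeneic against naive libraries, and 2 rose and 3 fell in syngeneic against naive libraries. The median change of the cytosolic genes was 0.34 in allogeneic and 0.44 in syngeneic against naive libraries, and that of the mitochondrial genes was -0.01 and 0.01, on the log2 scale. Over all tested genes the medians were -0.01 in allogeneic and 0.01 in syngeneic against naive libraries.

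**Figure D2:**
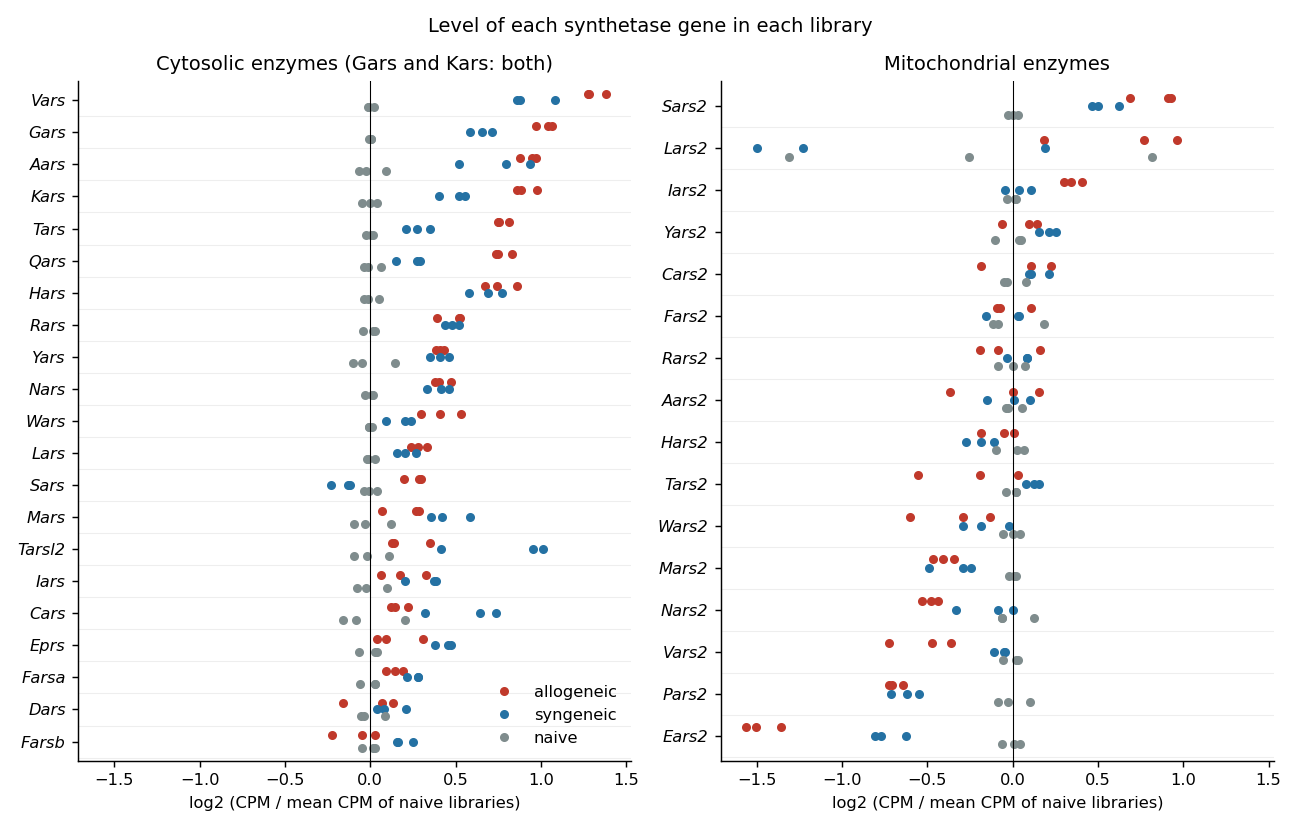
Level of the members shown in each library, as the log2 of its CPM over the mean CPM of the naive libraries, for cytosolic genes with Gars and Kars (left) and mitochondrial genes (right), each point a library. Most cytosolic genes of both transplant groups lie to the right of the naive libraries, from Vars with 457 to 493 CPM in allogeneic libraries at the top to Farsb, while Ears2 lies farthest to the left with 7.41 to 8.55 CPM in allogeneic libraries.

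Vars, which charges valine, was the cytosolic gene of largest change against naive T cells in both transplant groups. It lies on chr17:35000987-35016322 (GRCm38, plus strand). Its level was 457, 493 and 460 CPM in allogeneic, 348, 343 and 400 CPM in syngeneic and 188, 192 and 187 CPM in naive libraries. All allogeneic libraries lay above all syngeneic ones, and these above all naive ones. The change was 1.37 ± 0.09 in allogeneic against naive libraries (edgeR adjusted p = 1.73e-07), 0.98 ± 0.09 in syngeneic against naive libraries (edgeR adjusted p = 6.29e-06) and 0.39 ± 0.09 in allogeneic against syngeneic libraries (edgeR adjusted p = 0.00395). Per kilobase of merged exon, Vars was also the highest cytosolic gene, with 83.9 ± 3.57 CPM per kb in allogeneic, 64.9 ± 5.61 in syngeneic and 33.7 ± 0.411 in naive libraries (SD, n = 3 each).

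Gars and Kars encode the glycine and lysine enzymes of both compartments and rose in every comparison. Gars stood at 190.0, 178 and 187 CPM in allogeneic, 143, 136 and 149 CPM in syngeneic and 90.1, 90.9 and 91.0 CPM in naive libraries. The 3 groups of Gars values did not overlap, and its change was 1.08 ± 0.09 in allogeneic and 0.69 ± 0.09 in syngeneic against naive libraries (edgeR adjusted p = 1.41e-06 and 9.83e-05). In allogeneic against syngeneic libraries it was 0.39 ± 0.09 (edgeR adjusted p = 0.00426). Kars followed the same order without overlap, with 226, 209 and 212 CPM in allogeneic, 165, 152 and 169 CPM in syngeneic and 111, 115 and 118 CPM in naive libraries. Its change was 0.97 ± 0.10 in allogeneic and 0.54 ± 0.10 in syngeneic against naive libraries, and 0.43 ± 0.10 in allogeneic against syngeneic libraries (edgeR adjusted p = 9.01e-06, 0.00124 and 0.00487).

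Aars, the alanine enzyme, rose in both transplant groups and was not called between them in the main fit. It had 178, 187 and 190.0 CPM in allogeneic, 139, 168 and 185 CPM in syngeneic and 92.3, 103 and 95.2 CPM in naive libraries. Both transplant groups lay above all naive libraries and overlapped each other. The change was 0.99 ± 0.09 in allogeneic and 0.80 ± 0.09 in syngeneic against naive libraries (edgeR adjusted p = 2.12e-06 and 2.73e-05), and 0.19 ± 0.09 in allogeneic against syngeneic libraries (edgeR adjusted p = 0.0874). Hars, Iars, Lars, Mars, Nars, Rars and Yars, which charge histidine, isoleucine, leucine, methionine, asparagine, arginine and tyrosine, shared this pattern of calls. Their changes were between 0.24 (Iars) and 0.81 (Hars) in allogeneic and between 0.25 (Lars) and 0.72 (Hars) in syngeneic against naive libraries. The calls of Mars and Iars in allogeneic and of Lars in syngeneic against naive libraries were lost under some of the settings tried. In allogeneic against syngeneic libraries Aars and Mars were called under some alternative setting.

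Promoter sequences of Gars, Aars and Tars are shown because these are the members whose 250 bases before the start hold TGATGNAA, the core of the element bound by ATF4 with C/EBP proteins. They are the 150 bases before the start annotated by RefSeq (GRCm38.p6), written from 5′ to 3′ on the gene's strand. The capitals mark a match on either strand, and in Aars also CACGTG, the E-box bound by Myc with Max.
Gars, chr6:55037851-55038000, plus strand: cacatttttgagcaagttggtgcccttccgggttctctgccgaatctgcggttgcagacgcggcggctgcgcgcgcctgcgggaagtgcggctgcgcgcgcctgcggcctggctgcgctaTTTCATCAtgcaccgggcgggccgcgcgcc
Aars, chr8:111033692-111033841, plus strand: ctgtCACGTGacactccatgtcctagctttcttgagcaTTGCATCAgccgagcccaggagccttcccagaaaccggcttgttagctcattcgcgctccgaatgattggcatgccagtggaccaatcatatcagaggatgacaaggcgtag
Tars, chr15:11399659-11399808, minus strand: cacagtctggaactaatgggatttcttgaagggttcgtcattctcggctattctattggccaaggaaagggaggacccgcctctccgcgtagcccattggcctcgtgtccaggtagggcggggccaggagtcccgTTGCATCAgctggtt
The match began 30 bases before the start in Gars, 112 in Aars and 15 in Tars, and the E-box of Aars began 146 bases before the start. RefSeq promoters were matched for 28 of 38 members. TGATGNAA was found in 3 of these 28 (10.7%) and in 3.91% of the promoters of all 27025 symbols of the count table that had one. CACGTG was found in Aars, Iars and Farsb, 10.7% of the 28 members, against 6.86% of all promoters. None of the 14 mitochondrial members with a promoter held either motif. The motifs do not overlap each other in these windows, and a match is a description of the letters only.

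Between allogeneic and syngeneic T cells, synthetase genes were called in both directions at shares near those of all tested genes. Of 38 members, 9 were higher and 8 lower in allogeneic than in syngeneic libraries, against 24.3% of all tested genes called higher and 20.7% called lower. The median change of the members was -0.01, and that of all tested genes was -0.02 on the log2 scale. Qars, Tars, Sars, Vars and Wars among the cytosolic genes rose, with Gars and Kars and the mitochondrial Iars2 and Sars2. Tarsl2, Cars, Eprs and Farsb fell, with the mitochondrial Ears2, Vars2, Tars2 and Nars2.

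**Figure D3:**
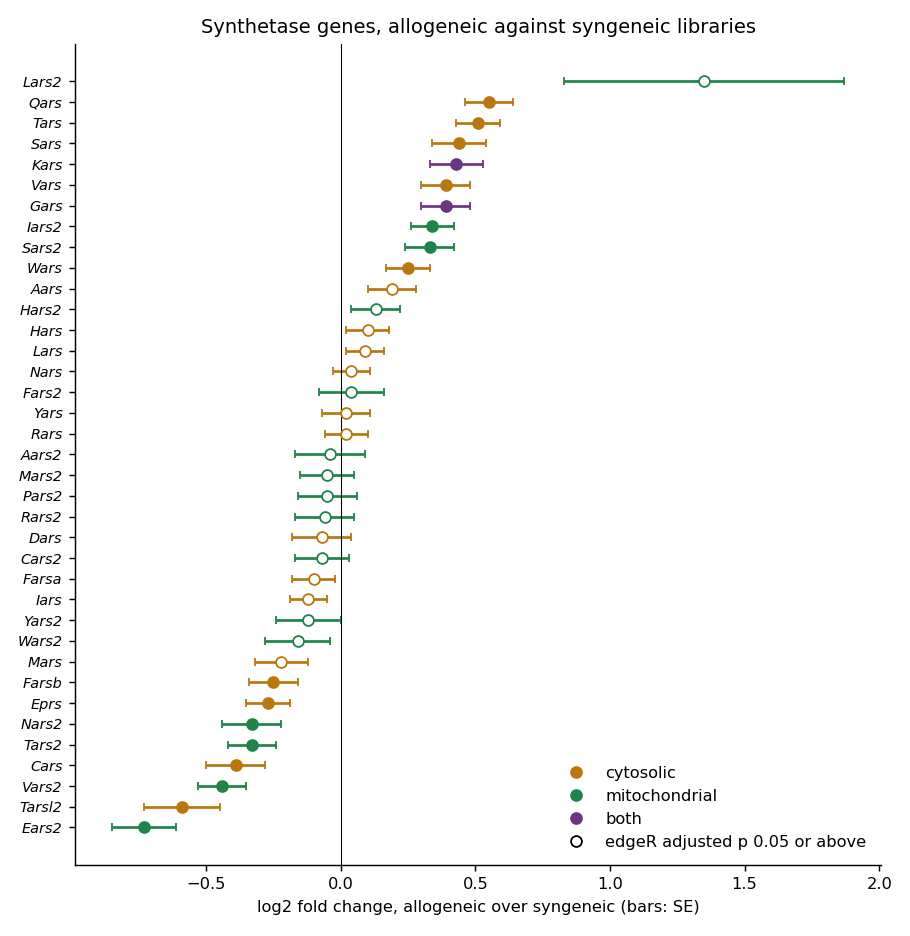
Log2 fold change of the members shown in allogeneic over syngeneic libraries with its SE, ordered by size and coloured by compartment, where filled points passed an edgeR adjusted p of 0.05. Qars, at 0.55 ± 0.09, is the uppermost filled point and Ears2, at -0.73 ± 0.12, the lowest, while Lars2, at 1.35 ± 0.52, has the widest error and did not pass.

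Qars, the glutamine enzyme of the complex, had 193, 206 and 195 CPM in allogeneic, 140.0, 129 and 142 CPM in syngeneic and 113, 115 and 121 CPM in naive libraries. The groups did not overlap, and the change was 0.55 ± 0.09 in allogeneic against syngeneic libraries (edgeR adjusted p = 0.000511). Against naive libraries it was 0.82 ± 0.09 in allogeneic and 0.27 ± 0.09 in syngeneic libraries (edgeR adjusted p = 1.32e-05 and 0.0278), and the syngeneic call was lost under 5 of the settings tried. Sars, which charges serine and, in mammals, also serves the selenocysteine transfer RNA, had 182, 183 and 171 CPM in allogeneic, 137, 127 and 136 CPM in syngeneic and 148, 145 and 153 CPM in naive libraries. Here the naive libraries lay between the transplant groups. Sars was higher in allogeneic libraries, by 0.44 ± 0.10 against syngeneic (edgeR adjusted p = 0.00328) and by 0.32 ± 0.10 against naive libraries (edgeR adjusted p = 0.0132, and 0.056 without naive library 2). In syngeneic against naive libraries its change was -0.12 ± 0.10 (edgeR adjusted p = 0.358). Wars, the tryptophan enzyme, known as a gene induced by interferon-gamma, had 80.7, 87.1 and 95.0 CPM in allogeneic, 77.3, 69.8 and 75.5 CPM in syngeneic and 65.3, 66.2 and 65.3 CPM in naive libraries. Both transplant groups lay above all naive libraries. Wars rose by 0.47 ± 0.08 in allogeneic against naive libraries (edgeR adjusted p = 0.000478) and by 0.25 ± 0.08 against syngeneic libraries (edgeR adjusted p = 0.0277), and the call against syngeneic libraries was lost under 5 of the settings tried. In syngeneic against naive libraries its change was 0.22 ± 0.08 (edgeR adjusted p = 0.0503).

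The threonine enzymes moved in opposite directions between the transplant groups. Tars is the main cytosolic threonine enzyme, Tarsl2 a second cytosolic one and Tars2 the mitochondrial one. Tars (chr15:11382301-11399665, GRCm38, minus strand) had 95.2, 95.7 and 99.6 CPM in allogeneic, 68.6, 65.6 and 72.4 CPM in syngeneic and 55.8, 57.4 and 56.8 CPM in naive libraries. The allogeneic libraries lay above all others, and the change against syngeneic libraries was 0.51 ± 0.08 (edgeR adjusted p = 0.000358). Against naive libraries it was 0.83 ± 0.08 in allogeneic and 0.32 ± 0.08 in syngeneic libraries (edgeR adjusted p = 4.47e-06 and 0.00669). Tarsl2 (chr7:65644898-65692091, GRCm38, plus strand) had 9.28, 9.18 and 10.7 CPM in allogeneic, 11.2, 17.0 and 16.3 CPM in syngeneic and 7.87, 8.31 and 9.07 CPM in naive libraries. Its allogeneic libraries lay below all syngeneic ones, with a change of -0.59 ± 0.14 (edgeR adjusted p = 0.00619). In syngeneic against naive libraries Tarsl2 rose by 0.84 ± 0.14 (edgeR adjusted p = 0.000651), and in allogeneic against naive libraries its change was 0.26 ± 0.14 (edgeR adjusted p = 0.142). Tm2d3, a gene on the same strand whose exons overlap Tarsl2, went the other way: it was 0.52 ± 0.14 higher in allogeneic than in syngeneic libraries and changed by -0.76 ± 0.14 in syngeneic against naive libraries (edgeR adjusted p = 0.0124 and 0.00139). Per kilobase of merged exon Tarsl2 was among the lowest members, with 1.44 CPM per kb in allogeneic, 2.20 in syngeneic and 1.25 in naive libraries. Tars2 had 38.8, 50.0 and 58.4 CPM in allogeneic, 60.3, 62.2 and 63.5 CPM in syngeneic and 57.9, 57.9 and 55.6 CPM in naive libraries. The allogeneic Tars2 values were spread widely, below all syngeneic ones, and the change was -0.33 ± 0.09 (edgeR adjusted p = 0.0138).

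Eprs, which joins the glutamate and proline activities in a single protein, and Cars, the cysteine enzyme, were highest in syngeneic T cells. Eprs had 164, 158 and 191 CPM in allogeneic, 200.0, 211 and 214 CPM in syngeneic and 157, 158 and 147 CPM in naive libraries. It rose by 0.47 ± 0.08 in syngeneic against naive libraries (edgeR adjusted p = 0.000746) and was lower in allogeneic than in syngeneic libraries, with a change of -0.27 ± 0.08 (edgeR adjusted p = 0.0191). In allogeneic against naive libraries the change of Eprs was 0.20 ± 0.08 (edgeR adjusted p = 0.0515). There it was called by DESeq2 (DESeq2 adjusted p = 0.0419) and without allogeneic library 2 (edgeR adjusted p = 0.0107). Cars had 29.3, 29.8 and 31.3 CPM in allogeneic, 33.6, 42.1 and 44.9 CPM in syngeneic and 25.4, 31.0 and 24.1 CPM in naive libraries. Every syngeneic library of Cars lay above every other library, and its change was -0.39 ± 0.11 in allogeneic against syngeneic libraries (edgeR adjusted p = 0.0105) and 0.62 ± 0.11 in syngeneic against naive libraries (edgeR adjusted p = 0.000694). Without syngeneic library 3 the change of Eprs was -0.27 (edgeR adjusted p = 0.0524) and that of Cars -0.33 (edgeR adjusted p = 0.0508) in allogeneic against syngeneic libraries. Without allogeneic library 2 that of Eprs was -0.19 (edgeR adjusted p = 0.0822). Phenylalanine is charged by a heteromer of Farsa and Farsb. Farsb fell in allogeneic against syngeneic libraries, by 0.25 on the log2 scale (edgeR adjusted p = 0.0431), a call lost under 7 of the settings tried. Farsa rose in syngeneic against naive libraries, by 0.30 ± 0.08 (edgeR adjusted p = 0.0124), a call lost without syngeneic library 1 (edgeR adjusted p = 0.0501) or naive library 2 (edgeR adjusted p = 0.0609). Dars, the aspartate enzyme, passed no comparison, with 64.3 to 78.6 CPM in allogeneic, 73.7 to 82.9 CPM in syngeneic and 69.0 to 76.2 CPM in naive libraries.

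Ears2, the mitochondrial glutamate enzyme, fell most of all members in allogeneic against naive T cells. Ears2 also charges the mitochondrial glutamine transfer RNA, with glutamate that an amidotransferase then converts, since mammalian mitochondria have no glutamine enzyme of their own. The gene lies on chr7:122037213-122067263 (GRCm38, minus strand). It had 7.72, 7.41 and 8.55 CPM in allogeneic, 14.2, 12.5 and 12.8 CPM in syngeneic and 22.6, 21.0 and 22.0 CPM in naive libraries. The groups did not overlap and ran opposite to those of Vars, Gars and Kars. Ears2 fell by 1.42 on the log2 scale in allogeneic and by 0.69 in syngeneic against naive libraries (edgeR adjusted p = 1.68e-06 and 0.000709). In allogeneic against syngeneic libraries its change was -0.73 ± 0.12 (edgeR adjusted p = 0.000525). Ubfd1, on the opposite strand with exons that overlap Ears2, held 59119 counts over the 9 libraries, against 15740 for Ears2, and was not called in any comparison.

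Vars2, the mitochondrial valine enzyme, was lower in allogeneic T cells, against the direction of cytosolic Vars. It had 27.6, 32.9 and 35.5 CPM in allogeneic, 44.2, 42.3 and 44.1 CPM in syngeneic and 46.2, 43.9 and 46.6 CPM in naive libraries. All allogeneic libraries lay below all others. Its change was -0.44 ± 0.09 against syngeneic and -0.46 ± 0.09 against naive libraries (edgeR adjusted p = 0.00171 and 0.000707). Pars2, the proline enzyme, was lower in both transplant groups, with 9.36, 9.51 and 9.94 CPM in allogeneic, 10.1, 9.47 and 10.6 CPM in syngeneic and 16.6, 15.2 and 14.6 CPM in naive libraries. Its change was -0.63 ± 0.11 in allogeneic and -0.58 ± 0.11 in syngeneic against naive libraries (edgeR adjusted p = 0.0005 and 0.00146). Mars2, the methionine enzyme, was likewise below naive in both transplant groups, with 21.5, 23.4 and 22.4 CPM in allogeneic, 24.3, 25.1 and 21.1 CPM in syngeneic and 30.1, 29.8 and 29.2 CPM in naive libraries. Its change was -0.35 ± 0.10 in allogeneic and -0.30 ± 0.10 in syngeneic against naive libraries (edgeR adjusted p = 0.00984 and 0.0311). The syngeneic Mars2 call was lost without syngeneic library 2 or 3 or any of the naive libraries.

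Sars2 rose with most cytosolic genes in both transplant groups, and Iars2 was called against naive in allogeneic libraries only. Sars2, the serine enzyme, had 23.4, 27.6 and 27.3 CPM in allogeneic, 20.5, 20.0 and 22.3 CPM in syngeneic and 14.5, 14.8 and 14.2 CPM in naive libraries, without overlap. It rose by 0.90 ± 0.09 in allogeneic and by 0.57 ± 0.09 in syngeneic against naive libraries, and by 0.33 ± 0.09 in allogeneic against syngeneic libraries (edgeR adjusted p = 5.1e-06, 0.000331 and 0.00933). Iars2, the isoleucine enzyme, was higher in allogeneic T cells, with 107, 112 and 104 CPM in allogeneic, 81.9, 86.5 and 91.0 CPM in syngeneic and 82.4, 85.3 and 85.5 CPM in naive libraries. Its change was 0.34 ± 0.08 against syngeneic and 0.41 ± 0.08 against naive libraries (edgeR adjusted p = 0.00508 and 0.000967). Rab3gap2, whose exons overlap Iars2 on the opposite strand, rose by 0.22 ± 0.08 in each of these comparisons (edgeR adjusted p = 0.0394 and 0.0297). In syngeneic against naive libraries the change of Iars2 was 0.07 ± 0.08 (edgeR adjusted p = 0.51). Nars2, the asparagine enzyme, fell by 0.43 on the log2 scale in allogeneic against naive libraries (edgeR adjusted p = 0.00575). In allogeneic against syngeneic libraries it fell by 0.33 (edgeR adjusted p = 0.0315), a call lost under 7 of the settings tried. Aars2, Cars2, Fars2, Hars2, Rars2, Wars2 and Yars2 passed no comparison, with changes between -0.28 (Wars2, allogeneic against naive) and 0.25 (Yars2, syngeneic against naive).

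Lars2, the mitochondrial leucine enzyme, varied widely between libraries of a group and passed no comparison. It lies on chr9:123366927-123462666 (GRCm38, plus strand). Its level was 827, 552 and 949 CPM in allogeneic, 207, 172 and 554 CPM in syngeneic and 855, 196 and 407 CPM in naive libraries. The naive libraries differed by more than the group means did, and they overlapped both other groups. The change was 1.35 ± 0.52 in allogeneic against syngeneic, 0.72 ± 0.51 in allogeneic against naive and -0.63 ± 0.51 in syngeneic against naive libraries (edgeR adjusted p = 0.0525, 0.244 and 0.36). Against syngeneic libraries Lars2 was called under 6 other settings, with edgeR adjusted p of 0.0115 without syngeneic library 3 and 0.0491 without allogeneic library 2. Its change in that comparison was 2.03 without syngeneic library 3. In allogeneic against naive libraries it was 1.41 without naive library 1 and was then called (edgeR adjusted p = 0.0348). Rows annotated as ribosomal RNA, looked at after these values were seen, also varied between libraries, in part in the order of Lars2. The mitochondrial mt-Rnr1 had 67.2, 37.3 and 63.0 CPM in allogeneic, 20.8, 23.0 and 40.3 CPM in syngeneic and 45.1, 18.8 and 31.3 CPM in naive libraries. The mitochondrial mt-Rnr2 had 94.9, 48.0 and 89.6 CPM in allogeneic, 31.8, 31.6 and 56.7 CPM in syngeneic and 68.0, 24.8 and 41.7 CPM in naive libraries. CT010467.1, annotated as ribosomal RNA, had 24.3, 17.2 and 26.5 CPM in allogeneic, 8.46, 5.77 and 14.4 CPM in syngeneic and 17.5, 5.56 and 11.8 CPM in naive libraries. The libraries of CT010467.1 stood in the same order as those of Lars2 within each group. Those of mt-Rnr1 and mt-Rnr2 did not, since in the allogeneic group both were highest in library 1 and Lars2 in library 3. The rows of the ribosomal RNA locus named above, Gm26917 and Gm42418, did not follow Lars2. Gm26917 had 137000, 70700 and 58600 CPM in allogeneic, 190000, 178000 and 163000 CPM in syngeneic and 152000, 157000 and 129000 CPM in naive libraries. The part of ribosomal RNA in the Lars2 count was not tested.

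**Figure D4:**
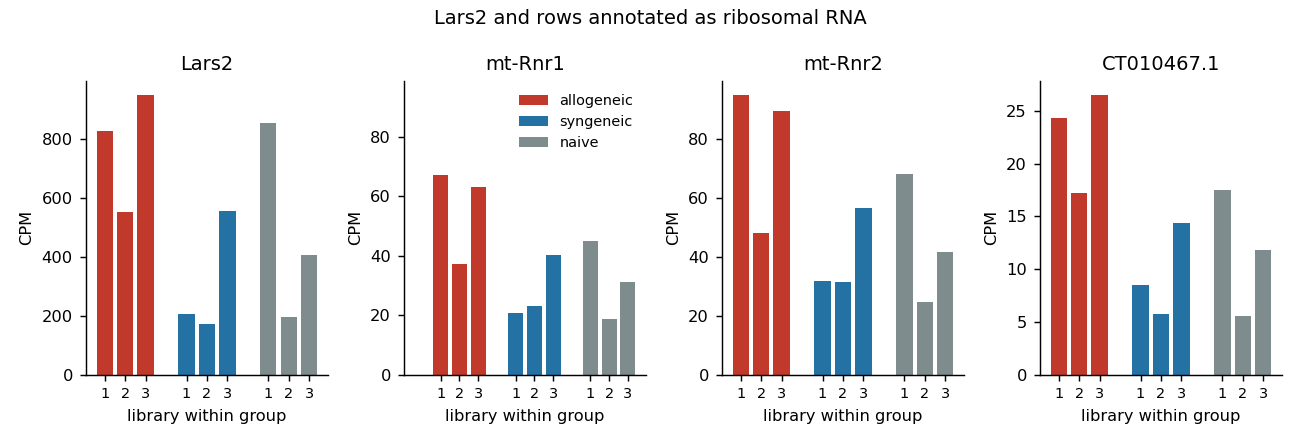
CPM of Lars2 and of the rows mt-Rnr1, mt-Rnr2 and CT010467.1, annotated as ribosomal RNA, in each library, with bars from 0 and no error since each bar is a library. Lars2 is lowest in library 2 of each group, at 552 CPM in allogeneic, 172 in syngeneic and 196 in naive libraries, as is CT010467.1, at 17.2, 5.77 and 5.56 CPM in the same libraries.

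The ratio of summed cytosolic to summed mitochondrial CPM turned on Lars2. With all members it was 1.87 ± 0.327 in allogeneic, 2.86 ± 0.637 in syngeneic and 1.79 ± 0.65 in naive libraries (SD, n = 3 each), and the groups overlapped. Without Lars2, a choice made after its values were seen, it was 5.35 ± 0.232 in allogeneic, 4.76 ± 0.114 in syngeneic and 3.51 ± 0.0709 in naive libraries (SD, n = 3 each). In this form the groups did not overlap, with 5.17 to 5.61 in allogeneic, 4.68 to 4.89 in syngeneic and 3.45 to 3.59 in naive libraries. The log2 difference between allogeneic and syngeneic libraries was -0.59 with Lars2 and 0.17 without it.

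Pairing the enzymes of the same amino acid gave 17 pairs, with Eprs set beside both Ears2 and Pars2. The log2 ratio of the cytosolic to the mitochondrial gene within a library was higher on average than in naive libraries in 13 pairs for allogeneic and in 15 pairs for syngeneic libraries. The median difference over the pairs was 0.62 in allogeneic and 0.44 in syngeneic against naive libraries. It was 0.08 in allogeneic against syngeneic libraries, where 9 pairs had a higher and 8 a lower ratio. Vars over Vars2 differed most between allogeneic and naive libraries, with log2 ratios of 4.05, 3.91 and 3.70 in allogeneic, 2.98, 3.02 and 3.18 in syngeneic and 2.03, 2.13 and 2.01 in naive libraries. Eprs over Ears2 had log2 ratios of 4.41, 4.41 and 4.48 in allogeneic, 3.81, 4.08 and 4.06 in syngeneic and 2.79, 2.91 and 2.74 in naive libraries. For both pairs the order was allogeneic, syngeneic, naive with no overlap. Serine ran the other way. Sars over Sars2 had log2 ratios of 2.65 to 2.96 in allogeneic, 2.60 to 2.75 in syngeneic and 3.29 to 3.43 in naive libraries.

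**Figure D5:**
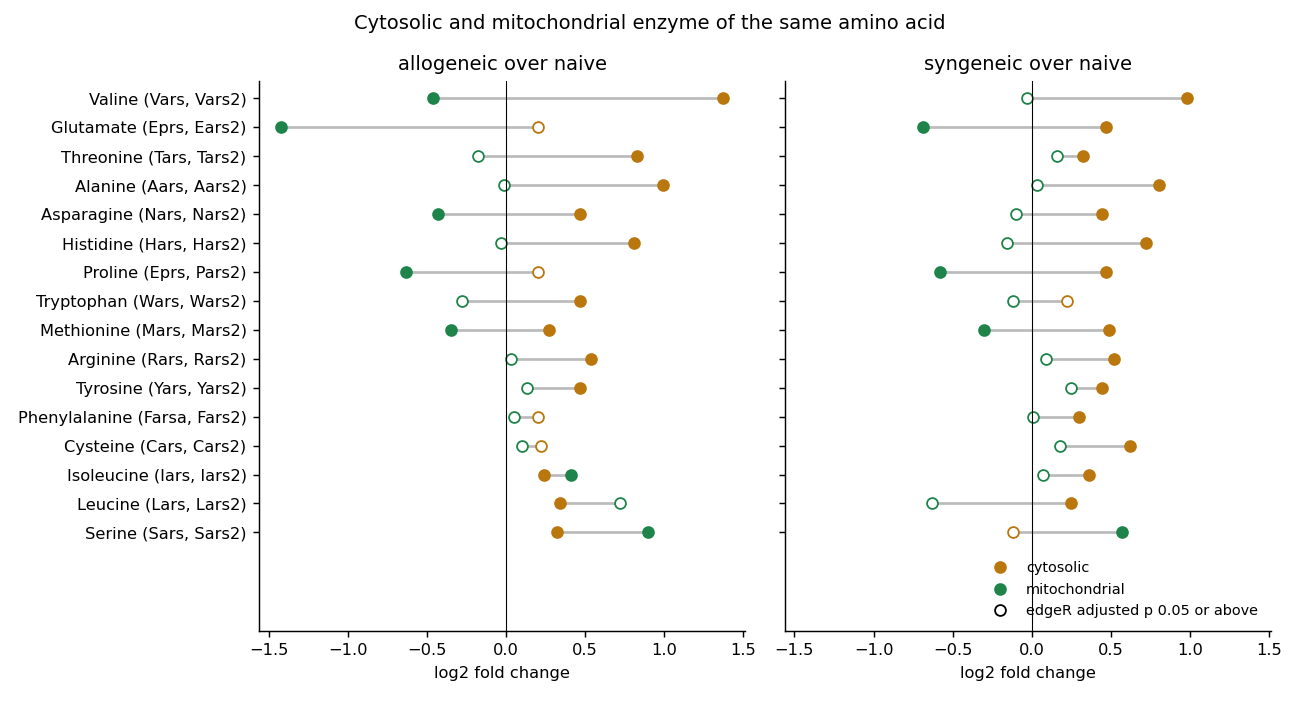
Log2 fold change of the cytosolic and the mitochondrial enzyme of the amino acids shown, in allogeneic over naive (left) and syngeneic over naive libraries (right), joined by a line, with filled points at an edgeR adjusted p under 0.05 and pairs ordered by the gap in the left panel. Valine is widest, with Vars at 1.37 and Vars2 at -0.46 in allogeneic over naive libraries, and Sars2 at 0.90 lies to the right of Sars at 0.32.

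Levels per kilobase of merged exon were mostly lower for the mitochondrial genes. The median of the cytosolic genes was 17.5 CPM per kb in allogeneic, 17.9 in syngeneic and 15.9 in naive libraries, and that of the mitochondrial genes was 3.79 in allogeneic, 4.18 in syngeneic and 4.25 in naive libraries. Among the mitochondrial genes other than Lars2 the highest was at 12.1 CPM per kb in allogeneic, 9.73 in syngeneic and 9.50 in naive libraries. Lars2 reached 70.0 ± 18.3 CPM per kb in allogeneic, 28.0 ± 19.0 in syngeneic and 43.8 ± 30.4 in naive libraries (SD, n = 3 each).

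Genes inside and outside the multisynthetase complex were both among the called. Of the 8 enzymes of the complex (Dars, Eprs, Iars, Kars, Lars, Mars, Qars and Rars), 6 rose in allogeneic and 7 in syngeneic against naive libraries, and none fell. Of the 13 other enzymes that work in the cytosol, 9 rose in allogeneic and 10 in syngeneic against naive libraries, and none fell. Of all tested genes 31.8% rose in allogeneic and 22.4% in syngeneic against naive libraries. In allogeneic against syngeneic libraries 2 enzymes of the complex rose and 1 fell, and 5 of the others rose and 3 fell. Of all tested genes 24.3% were higher and 20.7% lower in allogeneic than in syngeneic libraries. The scaffold genes moved apart. Aimp1 had 49.4, 46.1 and 43.2 CPM in allogeneic, 32.4, 33.0 and 36.1 CPM in syngeneic and 31.8, 31.3 and 33.6 CPM in naive libraries, and rose by 0.47 ± 0.11 against syngeneic and 0.58 ± 0.11 against naive libraries (edgeR adjusted p = 0.00371 and 0.000636). Eef1e1, another scaffold subunit, had 13.4, 11.2 and 13.9 CPM in allogeneic, 18.4, 18.5 and 17.7 CPM in syngeneic and 15.0, 14.3 and 16.5 CPM in naive libraries, and its change was -0.49 ± 0.13 against syngeneic libraries (edgeR adjusted p = 0.00994). Aimp2 passed no comparison. By catalytic class, 9 of 18 class I and 9 of 19 class II genes rose in allogeneic against naive libraries, as did 8 of 18 and 10 of 19 in syngeneic against naive libraries, where Eprs holds both folds and was left out.

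Most listed genes around ATF4 were higher in both transplant groups than in naive T cells, and more of them were lower than higher in allogeneic against syngeneic libraries. Of 24 listed genes 23 were tested. In allogeneic against naive libraries 17 rose and 2 fell, against 31.8% and 25.9% of all tested genes, and in syngeneic against naive libraries 17 rose and 1 fell, against 22.4% and 19.5%. Between the transplant groups, 5 were higher and 10 lower in allogeneic than in syngeneic libraries, against 24.3% and 20.7%. Atf4 itself had 120.0, 122 and 125 CPM in allogeneic, 139, 153 and 147 CPM in syngeneic and 119, 108 and 107 CPM in naive libraries. It was highest in syngeneic libraries, with a change of -0.24 ± 0.08 in allogeneic against syngeneic libraries and 0.43 ± 0.08 in syngeneic against naive libraries (edgeR adjusted p = 0.0271 and 0.000998). Asns, which makes asparagine, had 17.2, 8.43 and 11.2 CPM in allogeneic, 10.2, 31.8 and 28.3 CPM in syngeneic and 0.477, 0.556 and 0.811 CPM in naive libraries, so that both transplant groups lay above naive and overlapped each other. Psat1, of serine synthesis, rose by 1.83 ± 0.15 in allogeneic and 1.34 ± 0.15 in syngeneic against naive libraries (edgeR adjusted p = 1.18e-06 and 2.99e-05). Slc7a5, the light chain of a leucine transporter, was higher in both transplant groups than in naive libraries, by 0.68 ± 0.10 in allogeneic and 1.37 ± 0.10 in syngeneic libraries (edgeR adjusted p = 0.000172 and 1.75e-06). The genes that fell in allogeneic against naive libraries were Ddit3 and Trib3, with changes of -0.81 ± 0.14 and -0.64 ± 0.21 (edgeR adjusted p = 0.000408 and 0.0191). In syngeneic against naive libraries it was Ddit4, with -0.62 ± 0.15 (edgeR adjusted p = 0.00586). Myc, whose product binds the E-box, had 82.3, 82.4 and 97.1 CPM in allogeneic, 203, 181 and 212 CPM in syngeneic and 142, 138 and 141 CPM in naive libraries. The naive libraries lay between the transplant groups, and the change was -0.63 ± 0.09 in allogeneic and 0.54 ± 0.09 in syngeneic against naive libraries (edgeR adjusted p = 0.000154 and 0.000817). Of 9 genes of the Myc network, 2 rose and 2 fell in allogeneic against naive libraries, against 31.8% and 25.9% of all tested genes. In syngeneic against naive libraries 3 rose and 2 fell, against 22.4% and 19.5%. Mxd1 and Mxd3 rose and Mnt fell in both transplant groups, so the risen genes were not Myc alone.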

How the data were processed

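The deposited values are raw read counts, given by the authors as 1 column per library and 1 line per Ensembl gene. Stranded libraries were made from total RNA with ribosomal RNA depletion, per the labels' protocols. Per the submitters' processing notes, the tools were HTSeq 0.6.1, Bowtie2 2.2.1, TopHat2 2.0.13 and FastQC 0.11.3, on build GRCm38. The sources used here do not give how strand and multiply aligned reads were handled, so that reads of overlapping genes may be mixed. Exons of 10 members overlap those of another protein-coding gene that has a line of counts. Those of Aars, not among these 10, overlap Exosc6, a protein-coding gene on the same strand without a line of counts. Symbols, coordinates and exon lengths came from GENCODE M21, which matched 29014 of 29229 identifiers.

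Genes were kept by filterByExpr by group, scaled by TMM and tested by quasi-likelihood in edgeR 4.0.16 in a single model of the 9 libraries whose sole term was the group. Benjamini-Hochberg adjustment ran over all 19609 genes kept. SEs were obtained as the absolute log2 fold change over the root of F. The common biological coefficient of variation was 0.193. No set test was run, and sums and ratios over members carry no p. DESeq2 1.42.0, limma 3.58.1 (voom), other library sizes, no filter, a replicate block and leaving out each library were alternatives. Transplant replicates were pools of different recipients. For naive libraries the sources used here do not give this, so that p-values measure the spread between these libraries. Replicates were compared by a chi-square over genes, and none were alike within sampling noise.

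Every member is counted, and 1 of them is not reported individually here. Values of all libraries are given for Gars, Kars, Eprs, Wars, Tars and Tarsl2 and, per comparison and compartment, for up to 3 called members of largest change in each direction whose libraries do not overlap. They are also given for Lars2, chosen after its values were seen. The members, gene lists and this rule were chosen with earlier results of these data known.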

Additional observations from a re-analysis of the deposited data

Results flagged for a closer look

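Sars, the cytosolic serine enzyme, was picked out because its libraries moved apart from naive in opposite directions and it was called between the transplant groups. All 3 allogeneic libraries (171 to 183 CPM) lay above, and all 3 syngeneic libraries (127 to 137 CPM) below, the naive libraries (145 to 153 CPM). The change in allogeneic against syngeneic libraries was 0.44 ± 0.10 on the log2 scale (edgeR adjusted p = 0.00328). Since this call was part of the rule, it is no separate test of the pattern. The change in syngeneic against naive libraries was -0.12 ± 0.10 and did not pass the test (edgeR adjusted p = 0.358).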

How the results depend on the processing

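In allogeneic against syngeneic libraries, 9 members were called higher (8 to 10 with a library left out, 9 to 10 under 7 other settings) and 8 lower (4 to 9 with a library left out, 6 to 8 under the others). The count of lower members was 4 without syngeneic replicate 3 and 5 without allogeneic replicate 2. Against naive, 16 to 19 members were called higher in allogeneic and 16 to 20 in syngeneic libraries over all these settings. With the replicate block, 10 members were called higher and 7 lower in allogeneic against syngeneic libraries, 18 and 5 in allogeneic and 19 and 3 in syngeneic against naive libraries. Correlations of the deviations of same-numbered libraries lay between -0.118 and 0.265, and those of differently numbered ones between -0.252 and 0.185. With 3 libraries per group these values cannot settle whether the replicate numbers pair the libraries. The log2 difference in the cytosolic to mitochondrial ratio between allogeneic and syngeneic libraries was -0.59 (-0.79 to -0.47 with a library left out). It was 0.03 with the mean of log2 CPM, 0.11 without Vars and Lars2, and 0.17 without Lars2, an alternative chosen after seeing the data. Between allogeneic and naive libraries it was 0.13, and 0.60 without Lars2, with -0.17 to 0.39 over libraries left out (-0.01 without allogeneic replicate 2 and -0.17 without naive replicate 1). Between syngeneic and naive libraries it was 0.72 (0.43 to 0.98 with a library left out). The change of Lars2 in syngeneic against naive libraries was -0.63, with -1.30 to 0.06 over libraries left out, the last without naive replicate 1. Of members without a call, 9 of 21 changed sign under an alternative in allogeneic against syngeneic, 7 of 15 in allogeneic against naive and 4 of 16 in syngeneic against naive libraries. With 3 libraries per group, small changes of single members are near the limit of what these data resolve, and the cause of the lost calls was not tested.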

Other observations

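Some genes that act on transfer RNA beside the synthetases were called. Of 4 genes of editing factors, which remove a wrong amino acid or a D-amino acid, 3 were higher in allogeneic than in syngeneic libraries, against 24.3% of all tested genes. Dtd2 had 10.5, 9.36 and 9.56 CPM in allogeneic, 6.25, 6.07 and 6.53 CPM in syngeneic and 7.08, 7.06 and 6.37 CPM in naive libraries, a change of 0.66 ± 0.14 against syngeneic libraries (edgeR adjusted p = 0.0022). Of 10 genes of transfer RNA export and maturation, 3 rose and 2 fell in allogeneic and 3 rose in syngeneic against naive libraries. These shares were near those of all tested genes, of which 31.8% rose and 25.9% fell in allogeneic and 22.4% rose in syngeneic against naive libraries. Pop1, a subunit of ribonuclease P, rose by 1.08 ± 0.10 in allogeneic and 0.78 ± 0.10 in syngeneic against naive libraries (edgeR adjusted p = 5.03e-06 and 0.000128). Rpp40, another ribonuclease P subunit, had 2.94, 2.65 and 3.43 CPM in allogeneic, 5.86, 6.39 and 5.70 CPM in syngeneic and 7.85, 9.29 and 6.85 CPM in naive libraries, and its change was -1.35 ± 0.16 in allogeneic against naive libraries (edgeR adjusted p = 2.31e-05).

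Of 6 cytosolic elongation genes, 2 fell in allogeneic against naive libraries and none in syngeneic against naive libraries. Of all tested genes 25.9% fell in allogeneic and 19.5% in syngeneic against naive libraries. Eef2k, the kinase that inhibits elongation factor 2, had 4.63 to 10.1 CPM in allogeneic, 24.8 to 45.8 CPM in syngeneic and 24.6 to 25.8 CPM in naive libraries. All allogeneic libraries lay below all others, with changes of -2.35 ± 0.29 against syngeneic and -1.71 ± 0.28 against naive libraries (edgeR adjusted p = 6.73e-05 and 0.000334). Of 10 mitochondrial translation factors, 4 rose and 2 fell in allogeneic against naive libraries, against 31.8% and 25.9% of all tested genes. In syngeneic against naive libraries 3 rose and 1 fell, against 22.4% and 19.5% of all tested genes. Mtif3, a mitochondrial initiation factor, fell by 1.17 on the log2 scale in allogeneic and by 1.12 in syngeneic against naive libraries (edgeR adjusted p = 0.000156 and 0.000364). Of the 4 genes of the amidotransferase, which acts after Ears2, and of formylation, 2 rose and 1 fell in allogeneic against naive libraries. The shares of all tested genes there were 31.8% and 25.9%. In allogeneic against syngeneic libraries 1 (Qrsl1) rose, by 0.37 ± 0.13 (edgeR adjusted p = 0.0328), against 24.3% of all tested genes called higher.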
